A study of Mus musculus with 6 samples.

Results

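Collagen genes were identified among the 54532 genes of an RNA sequencing table from 6 mouse libraries as the protein-coding genes whose symbols read Col, a type number, the letter a and a chain number. The rule found 44 genes, of which 11 encode chains of fibrillar collagens, 6 chains of the basement membrane collagen type IV, 6 chains of type VI and 21 chains of other types. The 6 libraries are labelled MIN6, an insulinoma-derived mouse pancreatic beta cell line; 3 carry the genotype control and 3 the genotype PP2Ac knockdown, in which the catalytic subunit of the serine/threonine phosphatase PP2A was reduced. The title of the series concerns lipid damage to beta cells, and the labels give these libraries no lipid treatment, time, vector, promoter or clone. The sample titles read shc for every control library and sh2 for every knockdown library. Any other effect particular to sh2 therefore cannot be told apart from the loss of PP2Ac. No source says that libraries of a group came from separate cultures, so the p-values below set a difference only against the spread between these libraries, which may be technical.

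Collagens are secreted matrix proteins built from alpha chains that wind around each other into a helix, and most types need specific partner chains, each from its own gene. Fibrillar chains form the fibres of connective tissue, type IV forms the sheet of basement membranes, and type VI forms beaded filaments at the cell surface. In the pancreatic islet, beta cells lie on a basement membrane that is made largely by neighbouring endothelial cells. Chains are hydroxylated and folded in the endoplasmic reticulum, exported, trimmed by proteases and crosslinked outside the cell.

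The libraries held 14614737 to 16030939 recovered reads. Ppp2ca, the gene of the alpha isoform of PP2Ac, stood at 42.5, 34.6 and 35.6 FPKM in control and at 10.1, 11.4 and 10.9 FPKM in knockdown, where FPKM is the read number scaled by gene length and library size. Its groups did not overlap, and 28.7% of the control mean was left (limma adjusted p = 5.35e-06). Defining markers of the labelled cell type were absent or low: 18 of 20 beta cell genes had a mean FPKM below 1, and 11, among them Ins1, Ins2, Nkx6-1 and Slc2a2, were listed at 0 in every library. The 2 above it, Pdx1 and Mafa, rose from 1.68 ± 0.499 to 3.96 ± 0.309 and from 1.78 ± 0.435 to 4.86 ± 0.854 FPKM (SD, n = 3). Mitochondrially encoded mRNAs took 2.65% to 3.38% of reads in control and 1.23% to 1.34% in knockdown. The part of these differences in the results below was not tested.

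Promoters are shown for the collagen genes with the largest rises and for both genes that fell, where a RefSeq (GRCm38.p6) window was matched. Col1a1, also among the largest rises, had no matched window and is not shown. Each run is the 250 bases before the RefSeq start, 5′ to 3′ on the strand of the gene, and capitals mark matches on either strand to any of these motifs: the CCAAT box, read in reverse as ATTGG; the GC box with the letters GGGCGG, read in reverse as CCGCCC; the TATA box with the letters TATAAA, read in reverse as TTTATA; and the AP-1 site with the letters TGANTCA, which reads alike on both strands. No motif lies within another.
Col3a1, chr1:45311288-45311537, plus strand: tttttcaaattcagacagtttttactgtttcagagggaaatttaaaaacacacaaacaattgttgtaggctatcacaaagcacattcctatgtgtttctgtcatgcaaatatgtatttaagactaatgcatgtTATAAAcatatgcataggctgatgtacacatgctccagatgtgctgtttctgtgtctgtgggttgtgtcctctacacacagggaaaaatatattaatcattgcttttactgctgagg
Col6a1, chr10:76726045-76726294, minus strand: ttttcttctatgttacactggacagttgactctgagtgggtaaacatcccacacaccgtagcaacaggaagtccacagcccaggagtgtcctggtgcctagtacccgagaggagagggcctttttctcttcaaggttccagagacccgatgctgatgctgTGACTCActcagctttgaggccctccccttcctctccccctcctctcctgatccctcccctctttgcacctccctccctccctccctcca
Col6a2, chr10:76623631-76623880, minus strand: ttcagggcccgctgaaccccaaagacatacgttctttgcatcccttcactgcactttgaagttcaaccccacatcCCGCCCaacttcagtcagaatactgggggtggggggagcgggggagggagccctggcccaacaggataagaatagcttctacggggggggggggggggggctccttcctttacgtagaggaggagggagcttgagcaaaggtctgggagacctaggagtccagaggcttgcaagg
Col8a1, chr16:57754738-57754987, minus strand: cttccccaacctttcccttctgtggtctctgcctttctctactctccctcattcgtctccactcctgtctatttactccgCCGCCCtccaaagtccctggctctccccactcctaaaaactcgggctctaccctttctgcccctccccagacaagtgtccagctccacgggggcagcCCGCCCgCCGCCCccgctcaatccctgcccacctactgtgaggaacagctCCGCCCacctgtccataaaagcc
Col20a1, chr2:180986285-180986534, plus strand: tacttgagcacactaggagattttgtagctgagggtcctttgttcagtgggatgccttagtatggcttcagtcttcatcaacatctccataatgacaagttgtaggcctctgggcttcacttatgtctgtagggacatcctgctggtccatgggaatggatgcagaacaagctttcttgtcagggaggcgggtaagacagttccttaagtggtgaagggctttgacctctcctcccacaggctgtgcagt
The Col3a1 window held 1 TATA box, that of Col6a1 held 1 AP-1 site and those of Col6a2 and Col8a1 held 1 and 4 GC boxes. None of these motifs was in the Col20a1 window. The RefSeq start of Col6a1 lies 124 bases inside the gene as the deposited table places it, and Col6a2 has 2 RefSeq starts, of which the one shown matches the table. A RefSeq window was matched for 35 of the 44 genes. Of 10 matched collagen genes that were higher in knockdown, 6 had a CCAAT box, 7 a GC box, 1 a TATA box and 1 an AP-1 site. Of all 35 matched collagen genes 13, 21, 5 and 1 had them, in the same order. Of all 32851 windows in the RefSeq table, where a gene can have several, the shares were 33.8%, 32.7%, 12.4% and 6.75%. A match describes letters in a window and is not a measured site.

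Of the 44 collagen genes, 14 averaged 1 FPKM or more across the libraries and were tested with limma on log2(FPKM + 1). In knockdown 11 of them were higher, 2 were lower and 1 did not pass an adjusted p of 0.05. Over all tested genes 62.4% passed, 33.3% higher and 29.1% lower. The libraries of the groups did not overlap for 13 of the 14 genes, beside 68.1% of all tested genes (36.4% higher, 31.7% lower). The median difference of the 14 genes was 0.94 on the log2 scale, beside 0.03 over all 11652 tested genes. For 3 of the 14 genes, Col3a1, Col6a2 and Col20a1, the mean was at least 1 in a single group, so they entered the test through the group in which they were high; among the other 11 genes 9 were higher and 1 was lower. Chromosomal positions are those of the deposited table (GRCm38), and all 44 genes had the same position in GENCODE M21.

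**Figure D1:**
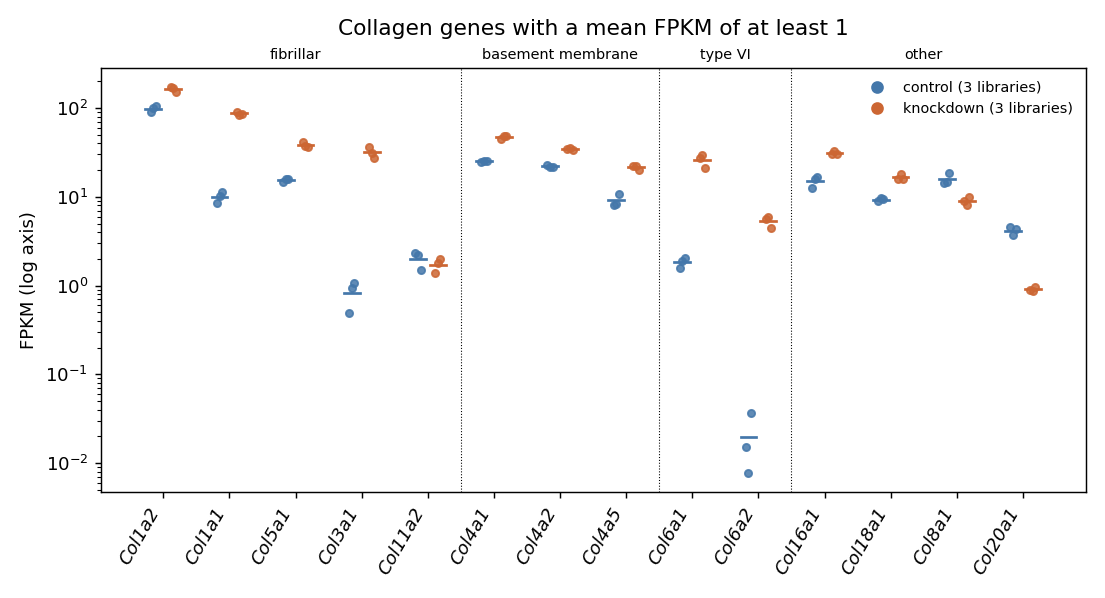
FPKM (log axis) of the 14 tested collagen genes in 3 control and 3 knockdown libraries; each point is a library and each bar a group mean. The groups overlap for Col11a2 alone; Col8a1 and Col20a1 lie lower in knockdown and the other 11 genes higher.

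**Figure D2:**
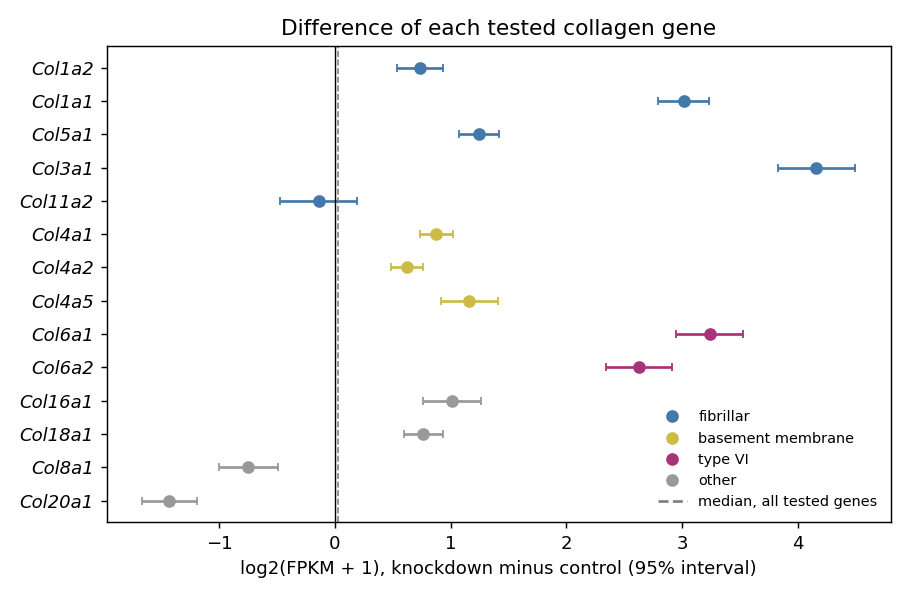
Difference in log2(FPKM + 1), knockdown minus control, of each tested collagen gene with its 95% interval from limma, coloured by class. Col3a1, Col6a1, Col1a1 and Col6a2 have differences from 4.16 down to 2.63, and the interval of Col11a2 spans 0.

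Among fibrillar collagens, 4 of 5 tested genes rose and none fell, beside 33.3% higher and 29.1% lower over all tested genes. Leaving out Col3a1, which entered the test through the knockdown group, 3 of 4 rose. Col1a1 (ENSMUSG00000001506, chromosome 11, 94936224 to 94953042, plus strand) encodes the main chain of type I collagen, the main fibre of skin, bone and scar. It had 8.47, 10.2 and 11.2 FPKM in control and 90.2, 84.2 and 86.4 FPKM in knockdown. Every knockdown library was far above every control library. The means were 9.95 ± 1.39 and 86.9 ± 3.05 FPKM (SD, n = 3), an 8.74-fold rise, with a log2 difference of 3.01 (SE 0.0971, limma adjusted p = 8.74e-07). Its partner Col1a2 (ENSMUSG00000029661, chromosome 6, 4504814 to 4541544, plus strand) was the most abundant collagen transcript per length in both groups. It had 90.7, 99.99 and 106 FPKM in control and 173, 170.4 and 151 FPKM in knockdown. The groups were again apart, and the rise was 1.67-fold (log2 difference 0.73, SE 0.0865, limma adjusted p = 0.000172).

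Col3a1 (ENSMUSG00000026043, chromosome 1, 45311538 to 45349706, plus strand; promoter printed above), the chain of type III collagen of reticular fibres, was low in control and abundant in knockdown. Its values were 0.490, 0.946 and 1.07 FPKM in control and 36.4, 31.3 and 27.3 FPKM in knockdown. Control library 1 was the lowest of all, and the lowest knockdown library still lay far above control. The rise was 38.0-fold in mean FPKM (log2 difference 4.16, SE 0.145, limma adjusted p = 1.31e-06). Col5a1 (ENSMUSG00000026837, chromosome 2, 27886425 to 28039514, plus strand), a chain of type V collagen, which seeds type I fibrils, had 14.6, 15.9 and 15.9 FPKM in control and 41.0, 36.9 and 36.3 FPKM in knockdown. The groups were apart and the rise was 2.46-fold (log2 difference 1.24, SE 0.0747, limma adjusted p = 8.35e-06). Col11a2 (ENSMUSG00000024330, chromosome 17, 34039437 to 34066685, plus strand), a minor fibrillar chain known from cartilage, had 2.32, 2.20 and 1.49 FPKM in control and 1.40, 1.78 and 1.97 FPKM in knockdown. Its groups overlapped, and the log2 difference of -0.14 (95% interval -0.47 to 0.19, limma adjusted p = 0.428) did not pass.

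All 3 tested chains of the basement membrane collagen rose, with log2 differences of 0.62 to 1.16, beside 33.3% of all tested genes higher. Col4a1 (ENSMUSG00000031502, chromosome 8, 11198423 to 11312826, minus strand), which with Col4a2 forms the common type IV network, had 24.8, 25.4 and 25.3 FPKM in control and 44.8, 48.5 and 47.9 FPKM in knockdown. Col4a2 (ENSMUSG00000031503, chromosome 8, 11312805 to 11449287, plus strand) had 22.7, 21.9 and 21.8 FPKM in control and 34.4, 35.5 and 34.0 FPKM in knockdown. The control libraries of each gene lay within a narrow range and below every knockdown library. Mean FPKM rose 1.87-fold for Col4a1 (log2 difference 0.88, SE 0.0632, limma adjusted p = 1.69e-05) and 1.56-fold for Col4a2 (log2 difference 0.62, SE 0.0606, limma adjusted p = 6.81e-05). Col4a5 (ENSMUSG00000031274, chromosome X, 141475385 to 141689234, plus strand), a chain of the specialised network of kidney glomeruli, had 8.13, 8.40 and 10.8 FPKM in control and 22.4, 22.05 and 20.1 FPKM in knockdown. Its groups were apart, with a 2.36-fold rise (log2 difference 1.16, SE 0.107, limma adjusted p = 5.17e-05).

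Col4a1 and Col4a2 start head to head and their gene models share 22 bases at chr8:11312805-11312826 (GRCm38.p6), printed here on the plus strand because it is where the starts cross.
Shared start of Col4a1 and Col4a2: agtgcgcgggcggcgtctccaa
Without a stated strand setting, reads of this stretch could have been assigned to either gene. It is a small part of the gene lengths of 7464 and 6619 bases.

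Both tested type VI chains rose from low levels, beside 33.3% of all tested genes higher, and Col6a2 entered the test through the knockdown group. Col6a1 (ENSMUSG00000001119, chromosome 10, 76708792 to 76726168, minus strand) had 1.57, 1.87 and 2.06 FPKM in control and 27.1, 29.5 and 21.05 FPKM in knockdown. Knockdown library 3 was the lowest of its group and still far above every control library. The rise of the means was 14.1-fold (log2 difference 3.24, SE 0.127, limma adjusted p = 2.06e-06). Col6a2 (ENSMUSG00000020241, chromosome 10, 76595762 to 76623630, minus strand), whose product pairs with that of Col6a1 in every type VI molecule, had 2, 1 and 5 reads in the control libraries and 716, 763 and 557 reads in the knockdown libraries. In FPKM these were 0.0150, 0.00774 and 0.0366 against 5.56, 5.98 and 4.48. The read rate was 263 times higher in knockdown, with a 95% exact interval of 133 to 610 that covers counting error only. The limma difference of 2.63 (SE 0.124, adjusted p = 3.20e-06) understates this, since the pseudocount of 1 FPKM is far above the control level. Col6a3, which encodes the large chain that completes the usual type VI molecule, stayed under the filter, with 5, 11 and 3 reads in control and 52, 31 and 56 reads in knockdown. Its mean level in knockdown, 0.255 ± 0.0757 FPKM (SD, n = 3), was far under those of Col6a1 and Col6a2 per length.

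The other collagens went both ways, with 2 of 4 tested genes higher and 2 lower, beside 33.3% higher and 29.1% lower over all tested genes. Col20a1, 1 of the 2 that fell, entered the test through the control group. Col16a1 (ENSMUSG00000040690, chromosome 4, 130047840 to 130099283, plus strand), a collagen that associates with fibrils, had 12.4, 15.8 and 16.9 FPKM in control and 30.1, 32.8 and 30.6 FPKM in knockdown. The groups were apart, and the rise was 2.07-fold (log2 difference 1.01, SE 0.109, limma adjusted p = 0.000109). Col18a1 (ENSMUSG00000001435, chromosome 10, 77052178 to 77166548, minus strand), a basement membrane proteoglycan whose end fragment is endostatin, had 8.89, 9.67 and 9.39 FPKM in control and 16.0, 17.9 and 15.8 FPKM in knockdown. This was a 1.78-fold rise with no overlap (log2 difference 0.76, SE 0.0739, limma adjusted p = 6.58e-05). Slc19a1, a folate carrier gene, overlaps Col18a1 on the opposite strand and went from a mean of 4.45 to 11.9 FPKM, with 41.6% as many reads as Col18a1; without a stated strand setting, reads of shared stretches cannot be told apart.

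The 2 falls were in a network collagen and a fibril-associated one. Col8a1 (ENSMUSG00000068196, chromosome 16, 57624258 to 57754737, minus strand), a short chain known from vessel walls and the cornea, had 14.4, 14.9 and 18.5 FPKM in control and 8.92, 8.15 and 10.1 FPKM in knockdown. The highest knockdown library was below the lowest control library, and 56.8% of the control mean was left (log2 difference -0.75, SE 0.111, limma adjusted p = 0.000568). Col20a1 (ENSMUSG00000016356, chromosome 2, 180986535 to 181018363, plus strand) had 4.52, 3.70 and 4.29 FPKM in control and 0.893, 0.876 and 0.976 FPKM in knockdown. Its groups were far apart, and 21.95% of the control mean was left (log2 difference -1.43, SE 0.102, limma adjusted p = 1.61e-05). The transcript 9230112E08Rik overlaps Col20a1 on the same strand and had means of 5.94 and 3.48 FPKM in control and knockdown, so the split of reads between them is uncertain.

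Summed over the 44 genes, collagen transcripts made up 0.223% ± 0.0177 of recovered reads in control and 0.458% ± 0.0160 in knockdown (SD, n = 3). The summed FPKM was 218, 235 and 248 in the control libraries and 536, 529 and 492 in the knockdown libraries. The ratio of means was 2.22, and the libraries of the groups did not overlap. By class it was 16.6 for type VI, 2.54 for the fibrillar class, 1.82 for the basement membrane class and 1.26 for the others, given as a description with no test. The shares of the classes in the pool are likewise a description. Type VI took 0.813% ± 0.0536 of the summed FPKM in control and 6.06% ± 0.746 in knockdown, while the other class took 20.5% ± 0.501 and 11.7% ± 0.670 (SD, n = 3). Fibrillar chains were the largest class in every library, at 54.4% ± 0.844 and 62.4% ± 1.37, and basement membrane chains took 24.3% ± 1.16 and 19.9% ± 0.896. Within the pool Col1a2 had a share of 42.3% ± 0.599 in control and 31.7% ± 0.892 in knockdown, and Col1a1 4.24% ± 0.325 and 16.8% ± 0.831.

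**Figure D3:**
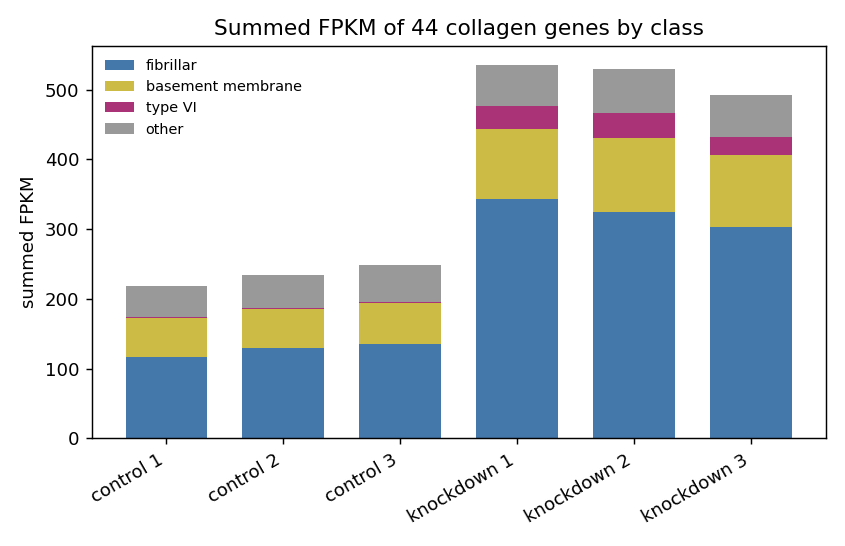
Summed FPKM of the 44 collagen genes in each library, stacked by class. The control libraries reach 218 to 248 and the knockdown libraries 492 to 536, and the type VI layer goes from a mean of 1.91 to 31.6.

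Ratios between partner chains of 1 molecule did not overlap between the groups. Of all tested genes taken singly 68.1% did not overlap either, and ratios of other gene pairs were not computed. The ratio of Col1a1 to Col1a2 FPKM was 0.0934, 0.102 and 0.106 in control and 0.521, 0.494 and 0.572 in knockdown; the type I molecule usually holds more Col1a1 than Col1a2 chains. The ratio lay higher in all knockdown libraries, by 2.40 on the log2 scale. Its absolute value depends on the gene lengths behind FPKM: the table gives Col1a2 12426 bases, against 5348 bases for its longest protein-coding transcript in GENCODE M21, and with transcript lengths the means were 0.0478 and 0.252. Col4a1 to Col4a2 was 1.09, 1.16 and 1.16 in control and 1.30, 1.37 and 1.41 in knockdown, a smaller shift of 0.26 on the log2 scale, again with no overlap. Col5a1 to Col5a2 went from a mean of 147 to 295 and rests on few Col5a2 reads, namely 12, 17 and 22 in control and 22, 15 and 21 in knockdown. Col6a1 to Col6a2 ran from 56.3 to 241 in control, where it rests on 1 to 5 Col6a2 reads, and was 4.87, 4.93 and 4.70 in knockdown. A two-sided exact permutation test of each of these 4 ratios gave p = 0.1, which is the lowest value possible for groups of 3, and 0.1 after Benjamini-Hochberg adjustment over the 4.

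Another 30 collagen genes were under the filter, and 16 of them had at least 10 reads over the 6 libraries, enough for a test on recovered reads with limma voom. In that test 22 of 30 collagen genes passed, 16 higher and 6 lower, beside 51.2% of 18545 genes, 24.1% higher and 27.1% lower. Of the 16 low genes, 5 rose, 4 fell and 7 missed the threshold. Among the genes that passed, Col5a3, Col6a4 and Col6a2 had 4, 6 and 8 reads in control. They reached 10 reads, and so entered this test, through the knockdown group in which they were high. Col5a3, another type V chain, had 1, 1 and 2 reads in control and 45, 38 and 50 in knockdown. Its read rate was 34.4 times higher (95% exact interval 13.1 to 128, voom adjusted p = 6.03e-06), at a level in knockdown of 0.428 FPKM. Col6a3 was 7.57 times higher (interval 4.67 to 12.9, voom adjusted p = 7.89e-05). Col6a4, a type VI chain gene that lies apart from Col6a1, had 4, 0 and 2 reads in control and 8, 9 and 11 in knockdown (voom adjusted p = 0.0108).

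Among low genes of the other class, Col12a1, whose product coats type I fibrils, had 69, 74 and 83 reads in control and 179, 174 and 176 in knockdown, with a voom log2 difference of 1.27 (adjusted p = 3.46e-06). Col14a1, a related coat collagen, went the other way, with 60, 77 and 90 reads in control and 35, 25 and 33 in knockdown (voom log2 difference -1.22, adjusted p = 0.000667). These related genes therefore differed in direction. The groups of each did not overlap, beside 68.1% of all genes that passed the filter. That share was not counted for genes under the filter, such as these. Col7a1, the chain of the anchoring fibrils of skin, had 211, 187 and 186 reads in control and 124, 110 and 138 in knockdown (voom log2 difference -0.61, adjusted p = 0.00278). Col9a3, a cartilage chain, had 89, 59 and 46 reads in control and 22, 29 and 22 in knockdown (voom log2 difference -1.30, adjusted p = 0.00150). Col17a1, a transmembrane collagen of hemidesmosomes, had 4, 8 and 5 reads in control and 11, 16 and 16 in knockdown (voom adjusted p = 0.0282). Col4a4, a type IV chain of glomeruli, had 37, 34 and 42 reads in control and 5, 3 and 9 in knockdown (voom log2 difference -2.71, adjusted p = 6.72e-05), and was the basement membrane gene that fell.

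Col10a1, Col5a2, Col22a1, Col15a1, Col8a2, Col24a1 and Col2a1 had 13 to 109 reads in all and did not pass in voom. Of these Col10a1, the collagen of hypertrophic cartilage, was nearest, with 3, 5 and 4 reads in control and 15, 7 and 9 in knockdown (voom adjusted p = 0.0660). A further 11 genes had 1 to 9 reads in all 6 libraries together and were not tested: Col4a3, Col6a5, Col23a1, Col9a2, Col28a1, Col11a1, Col4a6, Col26a1, Col6a6, Col9a1 and Col25a1. Col4a3 had 3 reads in each control library and none in knockdown, which is not above the floor of 3 reads per library, so no fold is given. Col13a1, Col19a1 and Col27a1 were listed at 0 in every library, and 3 reads would have given at most 0.0436, 0.0292 and 0.0154 FPKM. At this depth lower levels were not detectable.

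**Figure D4:**
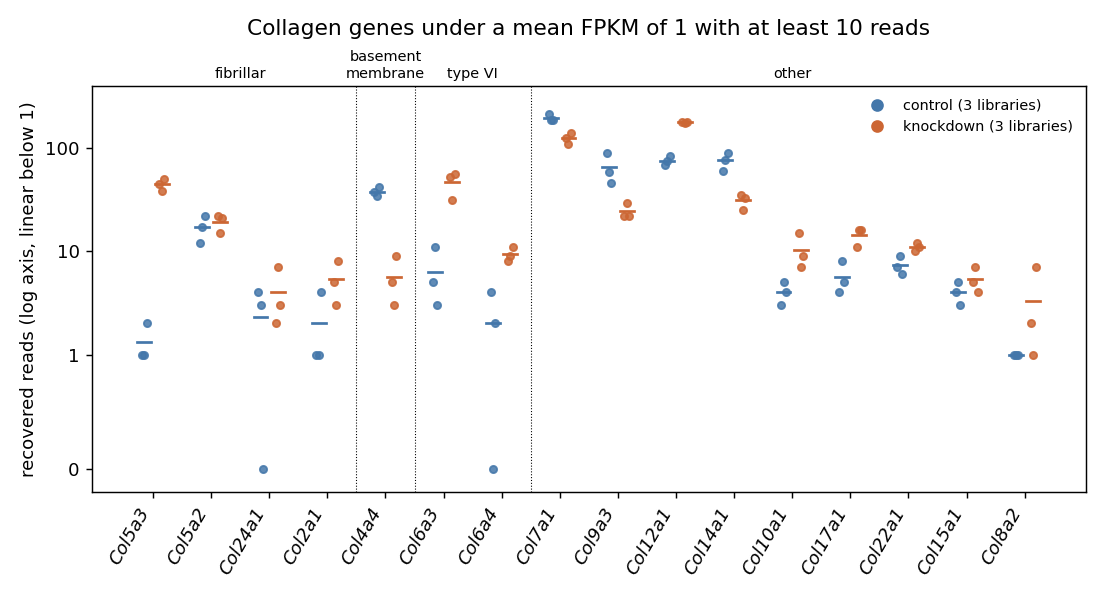
Recovered reads per library (log axis, linear below 1) for the 16 collagen genes under a mean FPKM of 1 that had at least 10 reads in all; points are libraries and bars group means. Col5a3 and Col6a3 lie higher in knockdown, Col4a4 and Col14a1 lower, and Col5a2 and Col15a1 overlap.

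Several collagen genes lie side by side, and their values are set side by side here with the voom log2 differences. The gene list held 10 pairs of collagen genes less than 500 kb apart. Col6a2 and Col6a1, 85.2 kb apart on the same strand, rose together with voom log2 differences of 7.98 and 3.79, and Col18a1, 326 kb beyond Col6a1, had 0.81. Col3a1 and Col5a2 lie tail to tail 24.6 kb apart, and Col3a1 rose by 5.29 while Col5a2 had 0.25 (voom adjusted p = 0.597). Col4a5 rose by 1.23, while Col4a6, whose start faces that of Col4a5 across 1308 bases, had 4 reads in all. Col4a4 and Col4a3 start head to head 71 bases apart; Col4a4 fell and Col4a3 went from 9 reads to 0. Col9a3 and Col20a1, 364 kb apart on the same strand, fell by 1.30 and by 2.20. The pairs are too few and were read from the map after the values were known, so no test was made.

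Genes that act on collagen were taken from 6 lists by role, 79 of whose 80 symbols were in the table. Of 49 that passed the filter, 32 rose, 7 fell and 10 missed the threshold, with a median log2 difference of 0.63. Over all tested genes 62.4% changed (33.3% higher, 29.1% lower), with a median of 0.03. Some of the 49 averaged at least 1 FPKM in a single group and entered the test through it. Among the genes named below these were Adamts14, Bgn and Mrc2, through knockdown, and Mmp13, through control. The lists for modification and folding held most of the rises. Among prolyl and lysyl hydroxylation and glycosylation genes 11 of 12 tested were higher and none was lower (median 0.92). Crtap and P3h1, which act in prolyl 3-hydroxylation, rose from 22.8 ± 1.22 to 67.2 ± 4.96 and from 6.90 ± 0.177 to 16.7 ± 1.17 FPKM (SD, n = 3). P3h3, also on this list, rose from 21.02 ± 2.32 to 45.3 ± 3.77 FPKM. P4hb, the shared subunit of prolyl 4-hydroxylase and a protein disulfide isomerase, rose from 216 ± 12.3 to 473 ± 42.6 FPKM. Plod2, a lysyl hydroxylase gene, was the list's tested member that did not pass, at 4.57 ± 0.326 and 4.64 ± 0.482 FPKM (limma adjusted p = 0.899).

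For chaperones and export, 10 of 14 tested genes were higher and 1 lower (median 0.48), beside 33.3% higher and 29.1% lower over all tested genes. Fkbp10, a prolyl isomerase of the endoplasmic reticulum, rose from 22.8 ± 2.12 to 57.9 ± 4.12 FPKM, Fkbp7 from 3.04 ± 0.554 to 8.54 ± 0.364 and Sparc, a secreted collagen-binding protein gene, from 44.7 ± 1.61 to 106 ± 13.0. Sec31a, a coat protein of export vesicles, rose from 30.6 ± 1.10 to 55.1 ± 3.95 FPKM (SD, n = 3). Mia2, an export receptor gene, was the member that fell, from 7.67 ± 0.212 to 5.15 ± 0.325 FPKM. For propeptide cleavage and fibril assembly, 4 of 5 tested genes were higher and none lower (median 0.83). Bmp1, the procollagen C-proteinase gene, rose from 6.43 ± 0.557 to 17.1 ± 0.946 FPKM, and Pcolce, its enhancer, from 171 ± 16.3 to 281.8 ± 27.8. Adamts14, a procollagen N-proteinase gene, rose from 0.836 ± 0.137 to 2.53 ± 0.317 and the proteoglycan gene Bgn from 0.674 ± 0.131 to 2.00 ± 0.409 FPKM. Both entered the test through the knockdown group.

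The lists for crosslinking, receptors and breakdown held both rises and falls, as did all tested genes, of which 33.3% were higher and 29.1% lower. Of 4 tested crosslinking genes 2 were higher and 2 lower: Pxdn, the peroxidase that crosslinks type IV collagen, rose from 2.23 ± 0.598 to 11.1 ± 0.443 FPKM and Loxl3 from 6.03 ± 0.823 to 12.1 ± 1.03. Loxl4, another lysyl oxidase gene, fell from 102.8 ± 5.54 to 42.7 ± 0.901 FPKM, and Tgm2, a transglutaminase gene, from 17.6 ± 1.77 to 9.49 ± 1.17 (SD, n = 3). Of 6 tested receptors 3 were higher and 2 lower. Mrc2, an endocytic collagen receptor gene, rose from 0.525 ± 0.125 to 11.9 ± 1.76 FPKM and Antxr1 from 2.94 ± 0.157 to 7.36 ± 0.329, while Ddr2, a receptor tyrosine kinase for fibrillar collagen, fell from 47.6 ± 4.85 to 24.0 ± 1.87 and Antxr2 from 27.4 ± 1.78 to 17.6 ± 0.633. The breakdown list had 2 rises, 2 falls and 4 misses among 8 tested genes (median 0.02). Mmp14, a membrane-bound collagenase gene, rose from 16.2 ± 0.271 to 35.9 ± 2.65 FPKM and the inhibitor gene Timp1 from 62.5 ± 6.02 to 84.0 ± 3.21. Mmp13, a secreted collagenase gene, fell from 2.41 ± 0.463 to 0.499 ± 0.0827 and Ctsl, a lysosomal protease gene, from 381 ± 26.7 to 181 ± 11.3 FPKM. For the named members of these lists the limma adjusted p ran from 2.09e-06 for Mrc2 to 0.00260 for Timp1, leaving out Plod2.

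**Figure D5:**
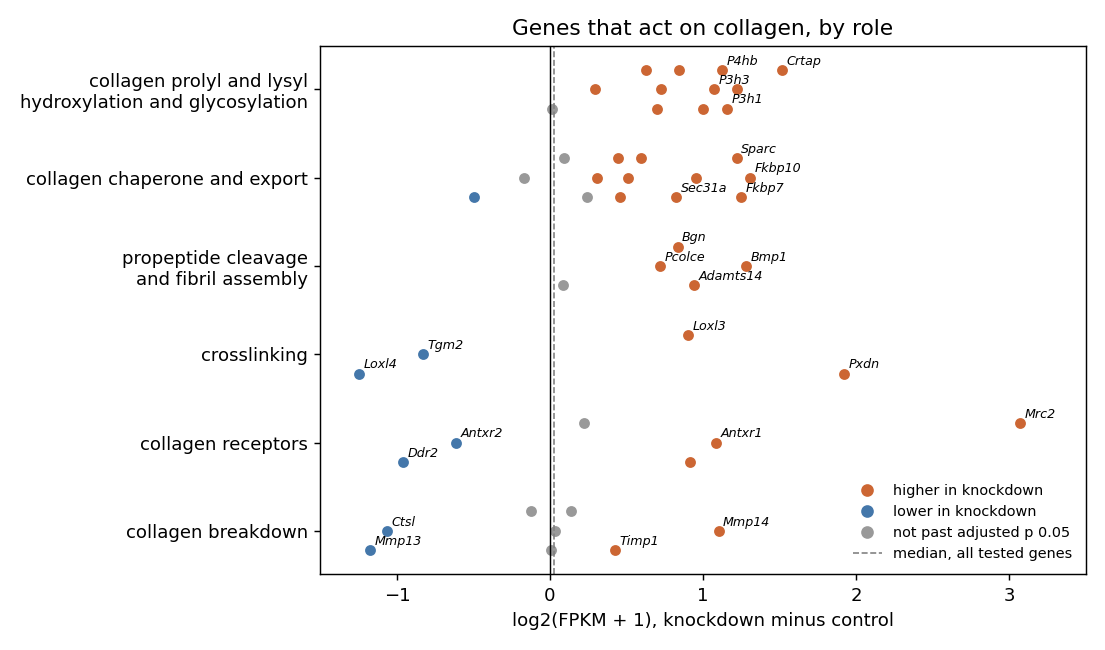
Difference in log2(FPKM + 1), knockdown minus control, of the 49 tested genes that act on collagen, in a row per role; colours give the limma call and names mark the 4 genes of each role with the smallest p. The modification row lies right of 0, with Plod2 at 0.01, and the crosslinking, receptor and breakdown rows have genes on both sides.

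Markers of other cells that make collagen were read in the same libraries. Of 15 fibroblast and stellate cell markers 12 had a mean FPKM below 1, and Lum, Fbln1 and Tcf21 were listed at 0 in all libraries. The 3 above it, Fbln2, Pdgfrb and Pdgfra, were all higher in knockdown. Pdgfra averaged 0.734 FPKM in control and 1.58 in knockdown, so it passed 1 FPKM through the knockdown group. Among those below 1, Dcn, Acta2 and Mfap5 were higher in the voom test. Acta2 and Mfap5, with 5 and 8 reads in control, entered that test through the knockdown group. Pi16 was lower (0.531 to 0.154 FPKM, limma voom adjusted p = 0.00111), and Fap, Des and Dpt did not pass. The summed FPKM of the list, most of it Fbln2 (means 30.6 and 56.9), was 34.4 to 42.7 in control and 67.9 to 76.5 in knockdown. The part of this difference in the collagen results was not tested. All 10 endothelial markers were below 1, with sums of 0.676 to 0.830 in control and 0.347 to 0.468 in knockdown. Within that list Vwf fell from 0.478 to 0.121 FPKM, and Pecam1 rose from 0.0408 to 0.189 FPKM, in the voom test (limma voom adjusted p = 2.45e-06 and 0.00210). Of 10 immune cell markers 7 were below 1, with Itgam and Adgre1 among those listed at 0; the sum was 34.5 to 38.3 in control and 44.6 to 53.4 in knockdown. The 3 immune markers above it went both ways: Cd68 fell from 16.5 ± 3.82 to 2.27 ± 0.310 FPKM, while Cd14 rose from 18.2 ± 2.26 to 44.2 ± 4.81 and Lyz2 from 1.74 ± 0.154 to 3.62 ± 1.19 (SD, n = 3). More RNA per cell and more cells of a type cannot be told apart in these bulk libraries.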

How the data were processed

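RNA from 3 control and 3 PP2Ac knockdown libraries was sequenced after Trizol extraction and Illumina TruSeq preparation, per the labels' protocols. The authors deposited 1 table of FPKM per gene with gene lengths; the submitters' processing notes name GRCm38 and mm10, and the aligner, the counter and its strandedness are not stated there or in the labels. FPKM times gene length was a whole multiple of 1 step, within 0.01, for 100% of non-zero values, which gave reads per gene. Libraries of a group differed by more than sampling noise (chi-square per degree of freedom 7.15 to 10.96), so none was merged.

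Collagen genes were chosen by biotype and symbol and classed by textbook types; the members, classes and gene lists were chosen with earlier results of these data known. Groups were compared with limma 3.58.1 under R 4.3.3 (eBayes with trend) on log2(FPKM + 1); genes averaging under 1 FPKM were left out. P-values were adjusted by Benjamini-Hochberg over all tested genes, with a threshold of 0.05. A fold change on this scale understates that of low genes. Low genes were tested with limma voom on recovered reads, for genes with at least 10 reads in all. Every collagen gene is named, and of each role list the 4 tested genes with the smallest p; Plod2 and Mia2, exceptions in their lists, and the marker and overlapping genes were named after their values were seen. Motifs were counted in RefSeq promoters with Python 3.11.15. Scripts were tested on simulated data. Alternatives were other pseudocounts, filters, scalings, variance models, library weights, gene sets, voom, a block for the replicate number and each library left out in turn, and, added after seeing the data, transcript lengths from GENCODE M21.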

Additional observations from a re-analysis of the deposited data

How the results depend on the processing

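For the 14 tested collagen genes all 249 alternative fits kept the direction and the side of the threshold. The count of higher collagen genes was 11 when any 1 library was left out and with the replicate block, and that of lower ones was 2; with the replicate block 3919 genes in all were higher and 3444 lower. The deviations of same-numbered libraries from their group means had correlations of -0.0107, 0.159 and 0.0518, not all above 0.1, so the numbers were not taken to pair them. The lower count of collagen genes was 5 with no filter on low values, 6 with voom and 1 with a mean FPKM of at least 5, settings that test more or fewer genes; the last also gave 2208 lower genes in all. Without mitochondrial genes, rRNA and Gm23935, 2835 genes were higher and 4454 lower, beside 3879 and 3388 as reported, and the median of all genes moved by -0.14 (with voom by -0.13); 11 collagen genes were then higher and 3 lower. With transcript lengths the log2 ratio of summed fibrillar FPKM was 1.15 in place of 1.35, since Col1a2 then weighs more. The Col6a1 to Col6a2 difference ran from -5.04 to -3.99 when 1 library was left out, as the control ratio rests on few reads. For genes with under 10 reads, depth limits any comparison.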

Other observations

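Several collagen-binding and collagen-cutting genes stayed under the filter and still had groups that did not overlap. Among genes that passed the filter 68.1% did not overlap, and the share under it was not counted. Dcn, which encodes decorin, a proteoglycan that decorates fibrils, averaged 0.0358 ± 0.0125 FPKM in control and 0.770 ± 0.1998 in knockdown (SD, n = 3). Fmod, the fibromodulin gene, averaged 0.0498 ± 0.0378 and 0.508 ± 0.113 FPKM, and Mmp9, a gelatinase gene, 0.0297 ± 0.0108 and 0.976 ± 0.194 FPKM. Mmp2 and Itga1 also lay higher in knockdown, with 24 and 13 reads in all. In voom Mmp2 did not pass (adjusted p = 0.0669) and Itga1 was just past the threshold (voom adjusted p = 0.0491). Both had under 10 reads in control and entered that test through the knockdown group. Pcolce2 lay lower, with 8 reads in all. It was not above the floor of 3 reads in any library and was not tested. Lox, the best known lysyl oxidase gene, was at 0.00422 FPKM in control and 0 in knockdown, and the collagen-binding integrin genes Itga1, Itga2 and Itga11 were each below 0.2 FPKM in both groups. The related Itga10 averaged 0.524 ± 0.128 and 0.389 ± 0.0879 FPKM with groups that overlapped, and their partner Itgb1 averaged 134 ± 11.97 and 156 ± 10.3 FPKM (limma adjusted p = 0.0558, voom adjusted p = 0.0360). Adamts2 and Adamts3, genes of procollagen N-proteinases, were listed at 0 in every library. The choice of these genes was made with their values in view.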
